A study of Mus musculus with 5 samples.

Results

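The cadherins examined here were Cdh2, Cdh4, Cdh6, Cdh7, Cdh8, Cdh9, Cdh10, Cdh11, Cdh12 and Cdh13, measured at postnatal day 0 in tissue of the dLGN, the dorsal lateral geniculate nucleus, through which the mouse thalamus passes retinal signals on to visual cortex. Members were all probe sets of the array whose platform annotation names 1 of these 10 genes and no other gene. This gave 24 probe sets of 45037 and 9 genes of 18193, since Cdh12 was not analysed here for want of a probe set under its symbol. The knockout group was Sema6A-/- mice, lacking both copies of Sema6a, a transmembrane semaphorin of axon guidance. The control group was Sema6A heterozygous mice, which carry 1 disrupted copy themselves. Both groups were on a C57BL/6 background, and the labels name no other allele or treatment. There were 2 knockout and 3 control arrays, each made from dLGN tissue pooled over pups of 1 genotype and more than 1 litter, so that the spread is between pools and not between animals. How the Sema6a allele was made, and whether it acts in all tissues, is not given in the labels.

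Cadherins are calcium-dependent adhesion proteins that pair with cadherins on a neighbouring cell through their outermost extracellular domain. Classical cadherins of type I (here Cdh2, also called N-cadherin, and Cdh4, R-cadherin) and of type II (Cdh6 to Cdh12 here) carry a cytoplasmic tail that binds p120-catenin and beta-catenin and, through alpha-catenin, the actin cytoskeleton. In the developing brain different type II members mark different nuclei, layers and neuron classes, and pairing of like members contributes to sorting of cells and to matching of axons with targets. Cdh13, or T-cadherin, is the exception in this set: it is held in the membrane by a lipid anchor and has no catenin-binding tail, so that it is not a classical cadherin.

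Several members are neighbours in RefSeq's gene table (assembly GRCm38.p6). Cdh6, Cdh9, Cdh10 and Cdh12 follow each other on 1 chromosome with 0 other protein-coding genes between them, and the same holds for Cdh8 and Cdh11 on another. RefSeq start-site windows, 250 bases before to 50 after an annotated start, were given for 6 of the 10 members (8 windows, 3 of them for Cdh7). Among the 8 windows, the longest run of letters shared by those of 2 different members, 15 bases, lay in those of the neighbours Cdh6 and Cdh9. It was found in 2 of all 32851 windows on either strand, these 2. The run was picked for being shared, so its presence in these 2 was fixed beforehand. Its first base lies 18 bases before the annotated start in the Cdh6 window and 209 before it in the Cdh9 window. The stretches around it are shown as a feature that this pair of neighbours shares, with the shared run in capitals, 5′ to 3′ on the strand of the gene (GRCm38.p6; Cdh6 chr15:13173671-13173700, minus strand; Cdh9 chr15:16728699-16728728, plus strand).
Cdh6: ccacttcATTCACTTGCAAATCagtgtgtg
Cdh9: ccactttATTCACTTGCAAATCgccctgcc
The windows were also searched on both strands for CTTTGAA and CTTTGAT, letters of the site bound by the TCF/LEF partners of beta-catenin, chosen after the windows had been read. CTTTGAA was found in 1 of the 8 windows, the third of Cdh7, and in 5.14% of all windows, and CTTTGAT in 0 of the 8 and in 3.73% of all. The Cdh7 stretch (GRCm38.p6, chr1:109983529-109983558, plus strand) is shown as the only match in these 8 windows, with the match in capitals.
Cdh7: gagcaggattcCTTTGAAccatctgcccta
These matches describe the letters in these windows only.

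Values are deposited log2 expression values, so that a difference of 1 is a 2-fold difference. Medians of the arrays lay between 6.39 and 6.42. The brightest probe set of Sema6a read 7.81 and 7.85 in the knockout arrays and 10.47, 10.65 and 10.39 in the controls, lower in both as the genotype labels state. The fit was limma's, over all 45037 probe sets, with Benjamini-Hochberg adjustment over all of them. In it 33 probe sets, or 0.0733%, had an adjusted p under 0.05. Of the 24 cadherin probe sets, 17 had a mean at or above the median of all values, 6.41, in at least 1 group, and all 24 are reported. The 2 knockout arrays were less alike than any pair of controls. The SD of their difference over all probe sets was 0.463, against 0.303 to 0.337 between controls. Knockout replicate 1 also had the largest excess of 3′ over 5′ signal of Gapdh, a sign of RNA quality, at 2.34, where replicate 2 gave 0.96 and the controls 0.77 to 1.32. It held more transcript of GABAergic and prethalamic genes, with a summed level (unlogged values added over the list) of 10193, where replicate 2 gave 1777 and the controls 1151 to 2173. Knockout replicate 2 read 4.10 for Xist, a gene transcribed in female cells, where the other 4 arrays read 10.79 to 11.54.

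No cadherin probe set passed the adjusted threshold in limma: 0 of 24, with adjusted p-values from 0.134 to 0.996. By unadjusted p-values under 0.05, 2 of the 24 read higher in the knockout (5.16% of all probe sets did) and 5 lower (5.99% of all). Both knockout arrays lay above every control at 2 of 24, against 12.9% of all probe sets, and below every control at 5 of 24, against 14.5% of all. Together these are 7 of 24, against 27.3% of all probe sets. The 7 belong to Cdh2, Cdh4, Cdh7, Cdh8 and Cdh11, and 3 of the 5 lower ones read the same gene, Cdh7. The median log2 difference over the 24 was -0.06, and -0.01 over all probe sets. Their median size without regard to sign was 0.34, against 0.15 over all probe sets. The median standard error was larger too, 0.25 against 0.15. Probe sets of 1 gene share its transcript and are not separate observations.

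**Figure D1:**
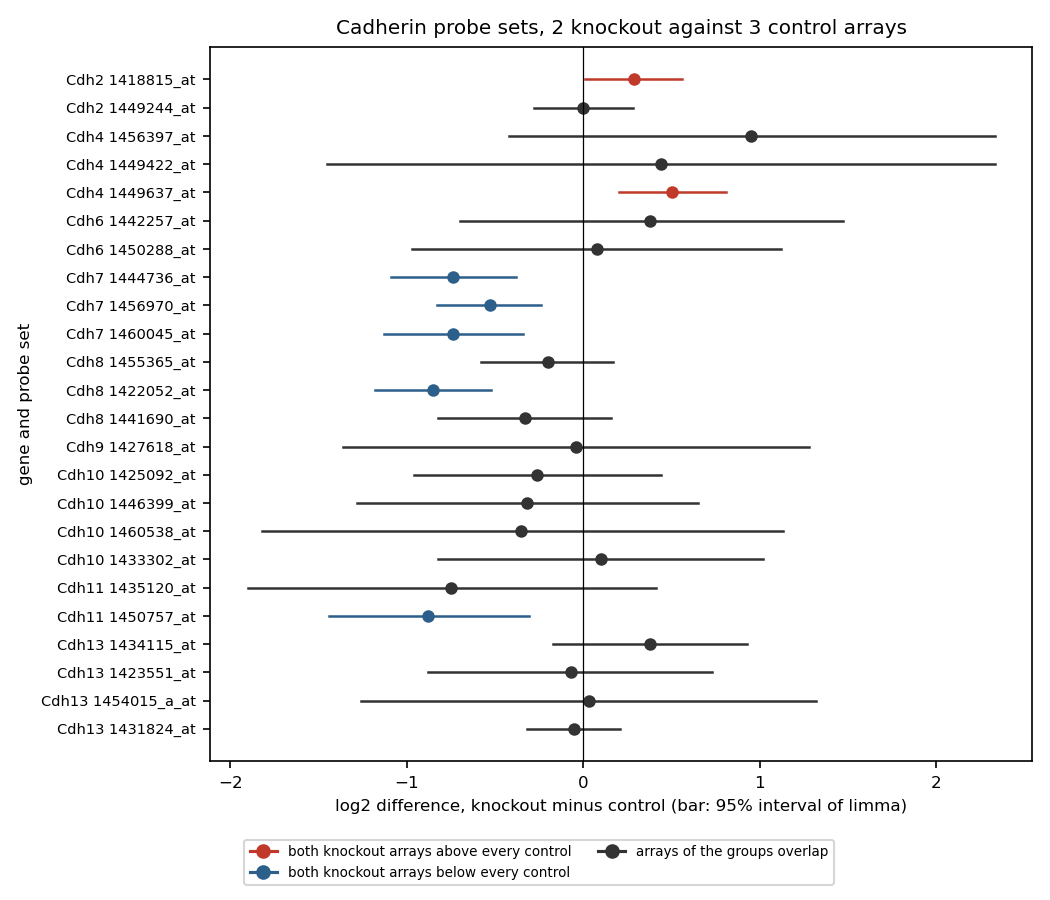
Log2 difference between knockout and control for each of the 24 cadherin probe sets (x axis, knockout mean of 2 arrays minus control mean of 3, bars 95% intervals of limma), with gene and probe set on the y axis. The 3 Cdh7 probe sets lie between -0.74 and -0.53 with intervals below 0, whereas those of Cdh6, Cdh9, Cdh10 and Cdh13 span 0.

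Cdh7, a type II cadherin, was lower in both knockout pools at all 3 of its probe sets, by 0.53 to 0.74 on the log2 scale. Probe set 1444736_at read 9.31 and 9.10 in the knockout and 10.04, 9.77 and 10.02 in the controls. The highest knockout value lay 0.45 below the lowest control. Its log2 difference was -0.74 (standard error 0.14, 1.67-fold), and limma gave an adjusted p of 0.190. Probe set 1460045_at gave 8.09 and 8.38 in the knockout against 8.94, 9.15 and 8.82. Again the groups did not overlap, with a difference of -0.74, a standard error of 0.16 and a limma adjusted p of 0.224. The third, 1456970_at, read 8.76 and 8.80 in the knockout and 9.44, 9.27 and 9.22 in the controls, a difference of -0.53 with a standard error of 0.12 (limma adjusted p = 0.234). Here the 2 knockout pools agreed within 0.03. The 3 probe sets were designed from different expressed sequences, and their differences were not distinguished from each other: the within-array contrasts between them changed by -0.20 to 0.20, with exact permutation p-values of 0.4 to 1. With any 1 array left out, the differences of the 3 probe sets stayed between -0.88 and -0.47. Cdh7 thus missed the threshold over all probe sets while its 2 pools agreed in direction at every probe set. In older annotation the symbol Cdh7 also stood for Cdh20, and all 3 probe sets carry the gene ID of Cdh7 itself. Cdh20 had its own probe set, which differed by -0.14 (limma adjusted p = 0.848).

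Cdh8, a type II cadherin known from synaptic circuits of sensory neurons, differed by probe set. At 1422052_at it read 9.97 and 9.75 in the knockout and 10.58, 10.74 and 10.80 in the controls. No knockout array came within 0.61 of a control there, and the log2 difference was -0.85 (standard error 0.13, 1.80-fold). Its adjusted p in limma, 0.134, was the smallest among the 24. The brightest probe set, 1455365_at, read 11.20 and 10.79 in the knockout and 11.22, 11.17 and 11.19 in the controls. Knockout replicate 1 was thus among the controls and replicate 2 below them, with a mean difference of -0.20 (limma adjusted p = 0.665). The third, 1441690_at, read 8.62 and 8.05 against 8.74, 8.72 and 8.53, the same arrangement, with a difference of -0.33 (limma adjusted p = 0.596). To ask whether the probe sets disagreed, the brightest was set against 1422052_at within each array. This contrast was 1.23 and 1.04 in the knockout and 0.64, 0.43 and 0.39 in the controls. Its change of 0.65 had an exact two-sided permutation p of 0.1, the smallest that 2 arrays against 3 can give, and 0.873 after adjustment over the 24 such pairs of probe sets computed in 8 genes. RefSeq lists several transcripts of Cdh8, and which of them each probe set reads was not tested.

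Cdh11, a type II cadherin of mesenchyme that is also found in neurons, was lower mainly in knockout replicate 2. Probe set 1450757_at read 10.81 and 10.12 in the knockout and 11.32, 11.22 and 11.49 in the controls. Both knockout arrays were lower than every control, by at least 0.41, and the difference was -0.88 (standard error 0.23, 1.84-fold), with an adjusted p of 0.284 in limma. The brighter probe set, 1435120_at, read 11.84 and 10.37 in the knockout and 12.27, 11.71 and 11.58 in the controls. There knockout replicate 1 lay inside the range of the controls and replicate 2 lay 1.49 below their mean, so that the difference of -0.75 had a standard error of 0.46 (limma adjusted p = 0.610). Without knockout replicate 2 this difference was -0.01. Without replicate 1 it was -1.49, and at 1450757_at the 2 omissions gave -0.53 and -1.22. Markers of meninges and fibroblasts, cells that also express Cdh11, are given beside this. Of the 11 genes of the list, 2 (Col1a1 and Slc6a13) had both knockout arrays below every control, as did 13.9% of all genes at their brightest probe set, and 1 (Fn1) had both above, as did 15.8%. The summed level was 2712 and 2941 in the knockout against 2964 to 5754 in the controls. Col1a1, a collagen chain of fibroblasts, read 7.17 and 8.52 in the knockout and 9.79, 9.03 and 10.57 in the controls, a difference of -1.95 (limma adjusted p = 0.333). The groups overlapped at 2 other chains of the list. Col1a2 read 8.22 and 7.31 against 7.91, 7.41 and 9.70, and Col3a1 read 7.73 and 6.71 against 7.64, 6.74 and 10.29. All 3 chains were highest in control replicate 3. Fn1, the gene of fibronectin, read 8.90 and 9.06 against 8.22, 8.57 and 8.70, a difference of 0.49 (limma adjusted p = 0.404). RMA values hold no zeros, so no marker is at 0, and the part of these cells in the Cdh11 values was not tested. In pooled tissue, fewer cells of a type and less RNA per cell cannot be told apart.

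**Figure D2:**
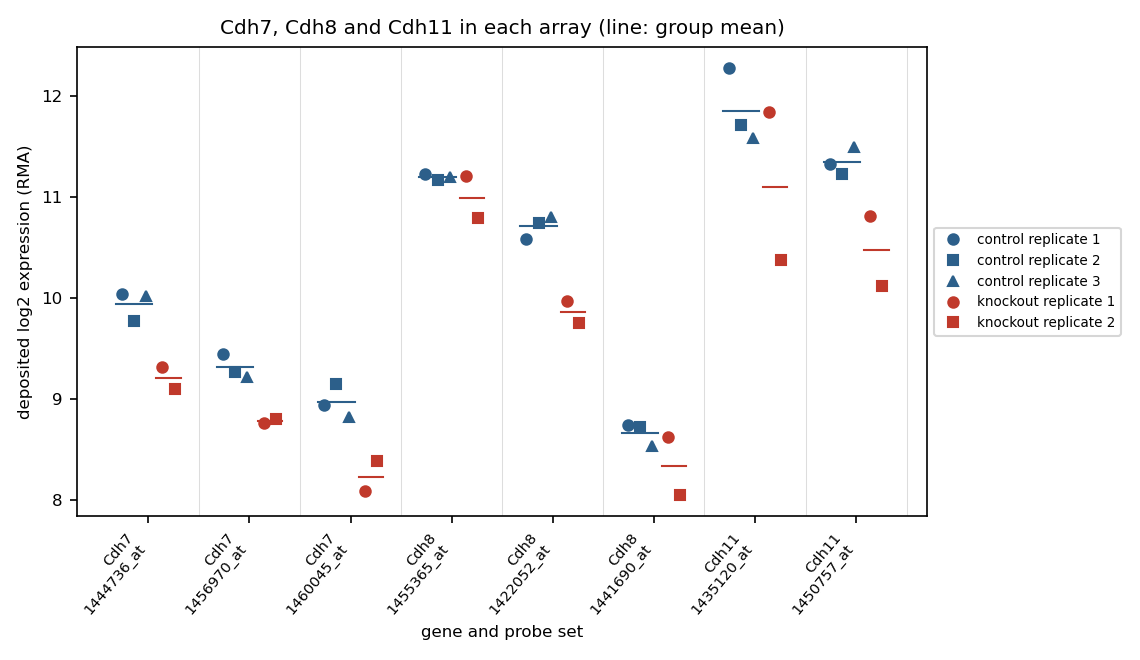
Deposited log2 expression (y axis) of the 8 probe sets of Cdh7, Cdh8 and Cdh11 (x axis) in each array, controls in blue, knockout in red, lines at the group means. Both knockout arrays lie below every control at all 3 Cdh7 probe sets and at 1 each of Cdh8 and Cdh11, and knockout replicate 2 is the lower of the 2 at every Cdh8 and Cdh11 probe set.

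Among the type I members, Cdh2, the N-cadherin that most neurons and their precursors carry, differed little. Probe set 1418815_at read 12.44 and 12.59 in the knockout and 12.28, 12.19 and 12.22 in the controls. Both knockout arrays were above every control, by at least 0.17, and the difference was 0.29 (standard error 0.11, 1.22-fold), with an adjusted p of 0.431 in limma. Probe set 1449244_at, designed from the same transcript, read 11.15 and 11.23 against 11.09, 11.20 and 11.26. Its difference was 0.00 with a 95% interval of -0.28 to 0.28, and the interval at the first was 0.01 to 0.56. The contrast between the 2 within arrays changed by 0.28, with an exact permutation p of 0.2. Cdh2 lies on the same chromosome as Sema6a, chromosome 18.

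Cdh4, the R-cadherin, was high in knockout replicate 2. The brightest probe set, 1456397_at, read 8.86 and 10.72 in the knockout and 8.47, 8.93 and 9.12 in the controls. Knockout replicate 1 was among the controls and replicate 2 stood 1.88 above their mean. The mean difference of 0.95 was the largest positive one among the members, and its standard error was 0.55 (limma adjusted p = 0.587). Probe set 1449422_at showed the same order, with 7.14 and 9.49 in the knockout and 7.13, 7.98 and 8.52 in the controls. The controls themselves spread over 1.39 at this probe set, and the difference of 0.44 had an adjusted p of 0.860 in limma. At the dim 1449637_at, below the median level in both groups, the values were 5.07 and 5.31 against 4.74, 4.63 and 4.69. Both knockout arrays were higher there, with a difference of 0.50 and a standard error of 0.12 (limma adjusted p = 0.259). All 3 probe sets were thus above the controls in knockout replicate 2, and the dim one alone in replicate 1.

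Cdh6, a type II cadherin that guides axons of some retinal ganglion cells to their brain targets, lay on opposite sides of the controls in the 2 knockout pools. At 1442257_at replicate 1 gave 9.95 and replicate 2 gave 11.45, and the controls gave 10.47, 10.14 and 10.35. Replicate 1 was below the 3 controls, which spanned 0.33, and replicate 2 stood 1.13 above their mean. At 1450288_at the knockout arrays gave 5.60 and 7.04 and the controls 6.07, 6.26 and 6.40, in the same order. The mean differences, 0.38 (limma adjusted p = 0.780) and 0.08 (0.963), average a value below the controls and a value above them, and describe neither pool.

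Cdh10, a type II cadherin of the same run of genes, showed the opposite arrangement. At 1425092_at replicate 1 gave 10.33 and replicate 2 gave 9.42, and the controls gave 10.17, 9.96 and 10.27. Probe set 1446399_at read 8.52 and 7.24 in the knockout against 8.17, 7.99 and 8.44. Replicate 1 was slightly above the highest control at both and replicate 2 well below the lowest. The mean differences were -0.26 and -0.32, with limma adjusted p-values of 0.768 and 0.795. The other 2 probe sets, 1433302_at and 1460538_at, were designed from 1 cDNA sequence, had means below 5 in both groups and gave 0.10 and -0.35. Of these, 1460538_at spread over 2.06 within the controls, more than any other member, so that it bears little on the gene.

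Cdh9, the type II cadherin between Cdh6 and Cdh10, known from synapses of hippocampal mossy fibres, had 1 probe set, 1427618_at. It read 6.23 and 4.74 in the knockout and 5.29, 5.09 and 6.19 in the controls. The level was below the median of the array and the controls spread over 1.10, so that the difference of -0.04 (95% interval -1.36 to 1.28) excludes neither a 2-fold rise nor a 2-fold loss.

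Cdh13, the lipid-anchored member, had 4 probe sets. The brightest, 1434115_at, read 9.01 and 9.69 in the knockout and 9.11, 8.93 and 8.87 in the controls. Knockout replicate 2 was above every control and replicate 1 among them, with a difference of 0.38 (limma adjusted p = 0.590). Probe set 1423551_at read 7.92 and 8.88 in the knockout against 8.18, 8.52 and 8.73, and 1454015_a_at read 4.79 and 6.33 against 5.19, 6.11 and 5.29. At both, replicate 1 was the lowest of the 5 arrays and replicate 2 the highest, and the differences were -0.07 and 0.03. The fourth, 1431824_at, read 2.65 to 2.78 in all arrays, near the floor of the array values, and carries no measure of the gene.

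**Figure D3:**
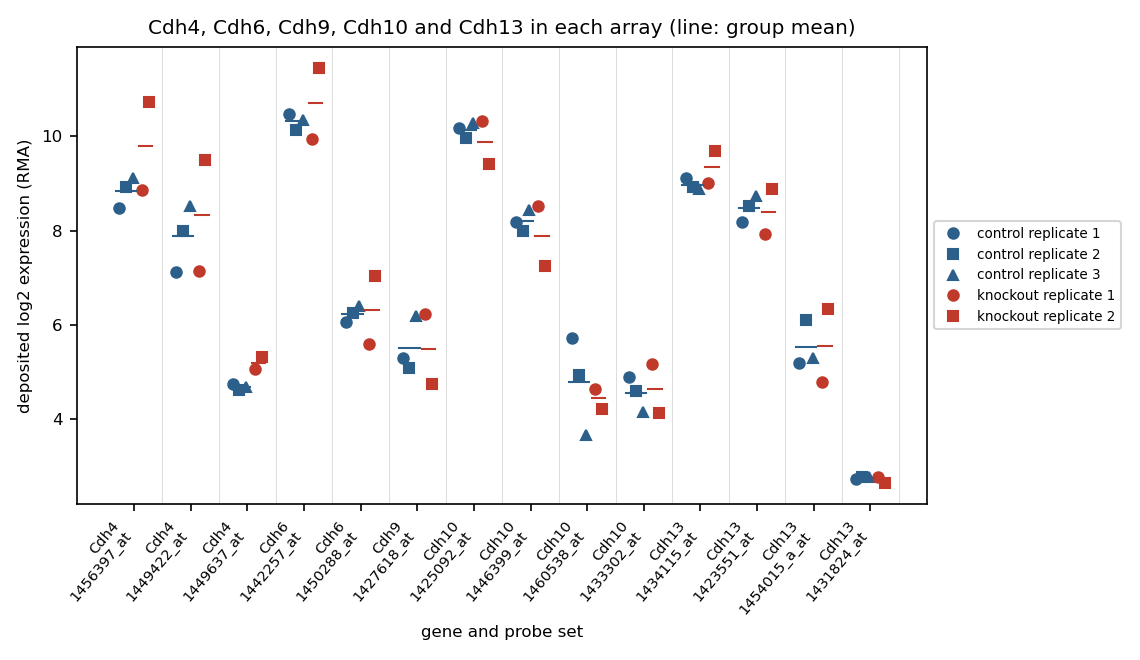
Deposited log2 expression (y axis) of the 14 probe sets of Cdh4, Cdh6, Cdh9, Cdh10 and Cdh13 (x axis) in each array, controls in blue, knockout in red, lines at the group means. The 2 knockout arrays stand apart from each other, with replicate 2 (squares) above replicate 1 (circles) for Cdh4 and Cdh6 and below it for Cdh9 and Cdh10.

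The 2 knockout pools differed widely from each other at the cadherins. Their median gap over the 24 probe sets was 0.68 on the log2 scale, against 0.21 over all probe sets. The gap was over 0.5, a limit chosen after the values were seen, at 14 of 24 probe sets, against 18.9% of all. They lay outside the range of the controls on opposite sides at 8 of 24 probe sets, in Cdh6, Cdh9, Cdh10 and Cdh13, against 9.94% of all. Knockout replicate 2 was outside that range at 22 of 24, 9 above and 13 below, where 50.9% of all probe sets were outside it in this array. Knockout replicate 1 was outside at 15 of 24, against 65.1% of all. Knockout replicate 2 was the farther of the 2 from the control mean at 20 of 24 probe sets, in 9 genes. The share over all probe sets was not computed for this count, so it cannot be called particular to the cadherins. Without knockout replicate 1, 7 probe sets read higher and 10 lower by unadjusted limma p-values under 0.05, together 17 of 24, where 8.81% of all probe sets passed that limit. Without replicate 2 there were 1 and 6, together 7 of 24, where 18.6% of all did. The adjusted threshold was passed by 0 members either way. The lone knockout array is then assumed to vary as the controls do.

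Values that set the pools apart in other genes are given here beside these. Genes listed for thalamic relay neurons, the cells that project from the dLGN to cortex, are given first. They summed to 55374 in knockout replicate 2, to 46662 in replicate 1 and to between 49089 and 49941 in the controls. Other cells can make them too, so that the sum does not measure relay neurons alone. Both knockout arrays were above every control at 6 of the 13, against 15.8% of all genes, and below at 3, against 13.9%. The 6 were Tcf7l2, Gbx2, Foxp2, Prox1, Calb2 and Olig3, with differences from 0.18 to 1.97 and 0 past the adjusted threshold in limma. Of these, Olig3 lay below the median level in both groups. Calb2 gave 11.70 in replicate 1 and 12.33 in replicate 2, with 10.19, 11.15 and 11.32 in the controls. The 3 were Rora at -0.36, Slc6a4 at -1.44 and Cck at -2.12, of which Cck passed (limma adjusted p = 0.0236). Some of these counts rest on near ties: the groups were 0.02 apart at Tcf7l2 and Prox1 and 0.01 apart at Slc6a4. Gbx2, a transcription factor of developing thalamic neurons, gave 11.22 in replicate 2 and 9.02 in replicate 1, with 6.95, 8.86 and 8.64 in the controls. Slc6a4, the serotonin transporter gene, gave 7.98 in replicate 1 and 10.60 in replicate 2, and the controls lay between 10.60 and 10.85. Slc17a6, a glutamate transporter gene that relay neurons express, read 12.77 to 13.00 in all arrays. Of the 15 GABAergic and prethalamic genes, 7 were above every control in both knockout arrays, where 15.8% of all genes were, and their median lay 2.65 above the control mean in replicate 1 and 0.18 in replicate 2. On the same count, 12 of 13 microglial genes were higher, with summed levels of 13345 and 9150 against 2104 to 2777. Of 10 genes of endothelium and pericytes, where Cdh13 is also made, 4 were higher, again against 15.8% of all genes, with sums of 8168 and 9363 against 7011 to 9115. The part of these cells, of the RNA quality of replicate 1 and of the sex of the pups in the cadherin values was not tested.

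The lists for other glia and for other tissues are given for completeness, to be read against the 15.8% of all genes with both knockout arrays above every control and the 13.9% with both below. Radial glia and astrocytes, which carry Cdh2 among others, had 2 of 11 genes higher in both knockout arrays and sums of 35123 and 35675 against 31291 to 33807. The oligodendrocyte lineage had 6 of 9 higher and 1 lower, with 12169 and 13215 against 9184 to 10168. Habenular genes had 0 of 7 higher and 2 lower, with 9199 and 10545 against 9896 to 10179. Genes of cortex and hippocampus had 1 of 7 in each direction and sums of 1190 and 724 against 511 to 597. Most of the sum in replicate 1 came from Bcl11b, at 9.80 and 8.55 in the knockout against 7.92, 7.41 and 7.44. Slc17a7 in the same list read 5.43 and 7.20 against 6.31, 6.26 and 6.84. Choroid plexus and ependyma had 2 of 6 higher and 1 lower, with 1157 and 812 against 593 to 797. That sum was mostly Otx2, the 1 gene of the 6 to reach the median level. Otx2 read 10.03 and 9.41 in the knockout against 9.39, 8.90 and 9.35. Ttr, in the same list, read 5.43 and 5.64 against 5.59, 5.47 and 5.41. The erythroid list had 1 of 4 in each direction, with 2066 and 2935 against 2669 to 3759.

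**Figure D4:**
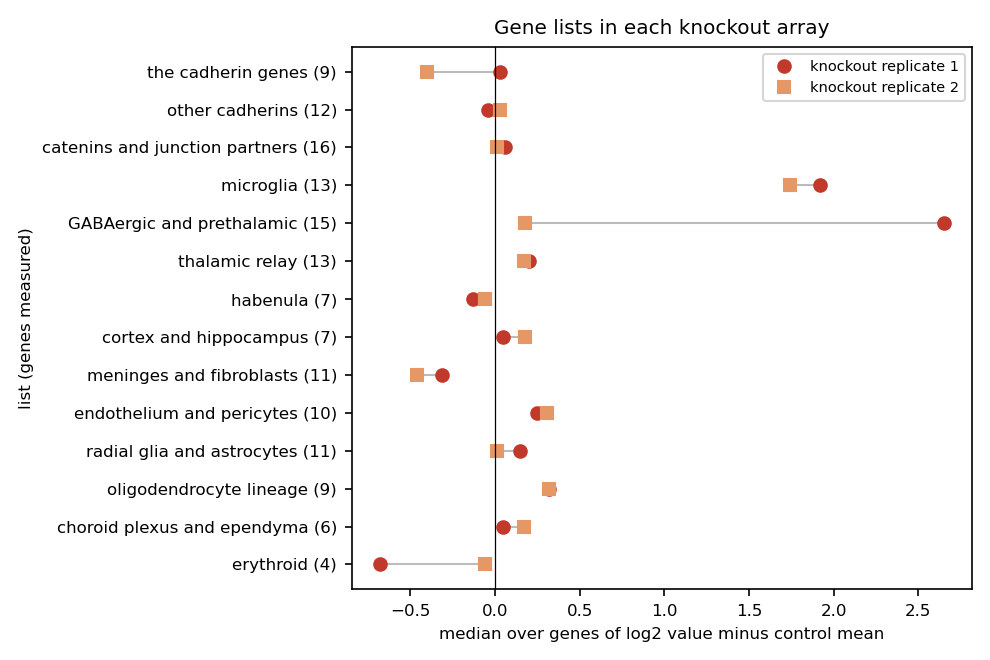
Median over the genes of each list of the log2 value minus the control mean (x axis) in knockout replicate 1 (circles) and replicate 2 (squares), for the cadherin genes, their relatives and partners, and cell type markers (y axis, genes measured in brackets). The cadherin genes give 0.03 and -0.40, and the lists farthest from 0 are microglia in both pools and GABAergic genes in replicate 1.

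Of 12 further cadherin genes measured, 0 passed the adjusted threshold in limma, where 0.104% of all genes did at their brightest probe set. By unadjusted p-values under 0.05, 2 read higher, as did 6.90% of all genes, and 1 read lower, as did 4.90%. The median difference over the 12 was -0.04, against 0.01 over all genes. The list had 2 genes at or above the median level, Cdh22 and Cdh15. Cdh22, a type II cadherin of brain, read 7.76 and 7.86 in the knockout and 7.42, 7.19 and 7.27 in the controls. The groups did not overlap, and its difference was 0.52 with a standard error of 0.12 (limma adjusted p = 0.252). Cdh15, the cadherin of muscle precursors, differed by -0.02 (limma adjusted p = 0.969). Cdh18, a type II relative on the chromosome of Cdh6, read 1.87 to 2.23 in all arrays, near the floor. Cdh1, the E-cadherin of epithelia, read 4.21 and 3.32 in the knockout and 5.32, 5.04 and 5.35 in the controls, low values that were picked after they were seen, with a difference of -1.47 (limma adjusted p = 0.184).

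Of 16 catenins and junction partners measured, 0 passed the adjusted threshold in limma, where 0.104% of all genes did. By unadjusted limma p-values under 0.05, 1 read higher, as did 6.90% of all genes, and 2 lower, as did 4.90%. Both knockout arrays lay above every control at 3 and below at 4, where 15.8% and 13.9% of all genes did. The median difference over the 16 was 0.06. Nectin3, an adhesion molecule of the immunoglobulin superfamily that works beside cadherins at junctions, read 9.59 and 9.98 in the knockout and 10.73, 10.47 and 10.70 in the controls. No arrays overlapped, and its difference was -0.85 with a standard error of 0.17 (limma adjusted p = 0.190). Its relatives gave -0.48 for Nectin1 and -0.39 for Nectin2, also with no overlap, with limma adjusted p-values of 0.418 and 0.482. Ctnnd1, which encodes p120-catenin, the catenin that holds cadherins at the cell surface, read 10.82 and 10.67 in the knockout against 10.42, 10.30 and 9.84. The groups did not overlap, and the difference was 0.56 (limma adjusted p = 0.402). Ctnnb1, the gene of beta-catenin, differed by 0.06, with a 95% interval of -0.20 to 0.31, and Ctnna2, the alpha-catenin of neurons, by 0.06, with -0.22 to 0.33.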

How the data were processed

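RNA of 2 knockout and 3 control pools was measured on Affymetrix arrays. Per the submitters' processing notes the authors used RMA, in a version and with settings not given in the sources used here, and deposited 1 value per probe set and array, whose range is that of log2 values. RMA equalises the arrays and compresses differences near background. Of 45101 probe sets, 64 array controls were left out. Symbols came from the platform annotation by gene ID (34945 probe sets with 1 gene, 932 with several, 9160 with none), and 34741 IDs were found in the RefSeq table of GRCm38.p6. A gene in a list was represented by its brightest probe set, and summed levels add unlogged values. Differences were fitted in R 4.3.3 with limma 3.58.1 (lmFit, then eBayes; two-sided; genotype as the only term), with 2.52 prior and 3 residual degrees of freedom. Precision is limited by the number of arrays: an exact test of 2 against 3 cannot go below p = 0.1. On simulated data of 45037 probe sets the fit recovered 42.1% of 2-fold and 94.8% of 4-fold changes, with 6.5 false calls per simulated set on average. The simulation gave both groups the same spread at each probe set. The real knockout arrays were less alike than the controls, so these shares need not hold for the cadherins. Named were all members, Sema6a and up to 4 genes of each partner list with the smallest p at or above the median level of 6.41. Other genes (Cdh1, Cdh18, Cdh20, Ctnnb1, Ctnna2, Xist and the cell type markers) were named after their values were seen. Members and lists were chosen with earlier results of these data known. Alternatives were a replicate block, further quantile normalisation, median centring, a filter on dim probe sets, an intensity trend, a robust prior, array weights, each array left out and a gene's value as the average over its probe sets.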

Additional observations from a re-analysis of the deposited data

Results flagged for a closer look

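The array's own control probe sets are left out of the comparison. Among them, Gapdh in knockout replicate 1 had a 3′ signal 2.34 above its 5′ signal on the log2 scale, beyond the highest control of 1.32. The same contrast for Actb was 1.91 there, against 1.45 at most in the controls and 0.97 in knockout replicate 2. Its part in the cadherin values was not tested.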

How the results depend on the processing

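The count of cadherin probe sets past the adjusted threshold was 0 under all alternatives run, leave-one-out range 0 to 0, as was the count of genes, also with a gene's probe sets averaged. Some came nearer to it than in the main fit. Cdh7 with its probe sets averaged gave -0.67 (limma adjusted p = 0.0597). Cdh8 1422052_at had a limma adjusted p of 0.0757 with dim probe sets left out and 0.0905 with the intensity trend. Of 290 differences of members recomputed, 264 kept their sign and 26 turned, all of the latter at probe sets whose groups overlap; the cause was not tested. The replicate numbers are not said to mark a shared litter or day, so they were not taken as pairs. Deviations from the group means correlated at 0.15 for the arrays numbered 1 and 0.21 for those numbered 2. With 2 knockout arrays their deviations mirror each other, correlating at -1, so these values cannot decide whether the arrays are paired. With the replicate block, 0 members passed, and Cdh9 gave 0.29, Cdh10 1433302_at -0.09, Cdh13 1423551_at 0.05 and Cdh13 1454015_a_at -0.09. Only the controls have a replicate 3, so the block's differences are those of the fit without control replicate 3. The block is thus not a separate check of their size. It also leaves fewer residual degrees of freedom than the main fit, which limits what it can call. Over all probe sets the calls went from 33 to 0 with the block, to 19 with array weights, to 100 with an intensity trend, to 114 of 23142 with dim probe sets left out, and to 0 with any 1 array left out. By unadjusted p-values under 0.05, the 2 higher and 5 lower members (of all probe sets, 11.1% in either direction) became 1 and 7 with the block (11.0%), 1 and 5 with array weights (9.54%) and 1 and 5 with dim probe sets left out (14.9%), and leave-one-out ranges were 1 to 7 and 5 to 10 (8.20% to 18.6%). With array weights Cdh9 gave 0.07 and Cdh13 1454015_a_at -0.01. Leave-one-out ranges that cross 0 were -0.04 to 0.04 for Cdh2 1449244_at, -0.73 to 1.61 for Cdh4 1449422_at, -0.37 to 1.13 for Cdh6 1442257_at, -0.65 to 0.80 for Cdh6 1450288_at, -0.40 to 0.00 for Cdh8 1455365_at and -0.79 to 0.70 for Cdh9. For Cdh10 they were -0.71 to 0.19 at 1425092_at, -0.96 to 0.32 at 1446399_at, -0.90 to 0.13 at 1460538_at and -0.43 to 0.63 at 1433302_at. For Cdh13 they were -0.56 to 0.41 at 1423551_at, -0.74 to 0.80 at 1454015_a_at and -0.12 to 0.01 at 1431824_at. Probe sets below the median level of 6.41 lie near background, which limits what they can show.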
